A study of Thunnus thynnus with 30 samples.

Results

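The genes described here are those of blood plasma: complement, clotting factors, the enzymes and inhibitors of clot removal, serpins and carrier proteins. They are the rows of the count table whose name matched a fixed list of plasma protein symbols, with capitals ignored, and 32 of the 7295 rows matched. The 32 rows carry 27 distinct names, because 5 names stand in the table in 2 spellings that differ in capitals (A2M and A2m, C3 and c3, FETUB and Fetub, ITIH2 and Itih2, ITIH3 and Itih3). Such rows were kept apart, and whether a pair stands for 1 gene or for 2 copies cannot be told from the table. Besides, 31 of the 32 rows belong to a role in plasma or among the serpins. The other is C1D, which matched by its spelling alone and encodes a cofactor of the nuclear RNA exosome, not a complement protein. Rows were matched by name and not by a measured value, but the list was chosen with earlier results of these data known.

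Plasma proteins are made mainly by the liver and secreted into the blood. Complement is a chain of proteases that marks microbes for destruction, and most of its arms meet at C3, which factor I helps to inactivate. Clotting runs through a series of proteases and cofactors to thrombin, which turns fibrinogen into fibrin, and plasmin later dissolves the clot. Serpins are inhibitors that trap proteases of both systems, although some members of the family have other tasks. These roles are known best from mammals. In fish larvae the liver takes shape around the time the yolk is used up.

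RNA was sequenced from whole wild-type larvae of the Atlantic bluefin tuna, Thunnus thynnus. Their live prey, the rotifer Brachionus rotundiformis, had been enriched with docosahexaenoic acid (DHA), an omega-3 fatty acid of fish oil, to ask what DHA does for larval development and growth. Low, medium and high DHA stand for rotifers with 2, 3.6 and 10.9 mg of DHA in each g of dry weight, per the labels. Sampling at an age of 5, 10 or 15 days after hatching (dph) gives 9 groups and 26 libraries. There were 3 libraries per group, apart from high DHA at 5 dph with 2 (replicates 2 and 3). The labels describe 3 tanks per treatment but do not say which tank a library came from or how many larvae it pooled, so p-values measure the spread between these libraries, which may be partly technical.

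Library totals ran from 12805866 to 19169404 counts, and the 32 rows took 0.273% to 0.605% of them. The lowest count of any of the 32 rows in any library was 7, and all 32 passed the filter on low counts. Levels are given as CPM (counts scaled to a common library size, with TMM factors) and are not corrected for gene length, so they compare a gene between groups, not genes with each other. Marker genes of liver, leukocytes, exocrine pancreas, gut and endothelium were found, as whole larvae should have, but each list also had names without a row. AMY2A, a pancreatic amylase, was the 1 marker row with a library at 0 counts. In such bulk samples, fewer cells of a type and less RNA per cell cannot be told apart. The balance of long and short genes differed between libraries. A length score, the mean log2 CPM of 26 very long genes minus that of 63 short respiratory chain genes, was lowest in low DHA at 10 dph (-3.55 ± 0.695, SD, n = 3) and next lowest in medium DHA at 5 dph (-3.01 ± 0.324, n = 3). Group means elsewhere lay between -2.60 and -2.00. Those 2 groups also held the 2 libraries of lowest TMM factor.

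Summed over the 32 rows, which include C1D and the serpins of cells and tissues, expression at 5 dph was 3550 ± 126 CPM for low DHA. It was 3640 ± 449 CPM for medium and 3820 ± 36 for high DHA (SD, n = 3, 3 and 2). At 10 dph the sums were 4470 ± 158, 3710 ± 259 and 5010 ± 667 CPM, and at 15 dph 5350 ± 498, 5230 ± 230 and 3960 ± 455 CPM for low, medium and high DHA (n = 3 each). High DHA thus had the highest mean of its age at 5 and 10 dph and the lowest at 15 dph. At 5 dph its libraries lay within the range of the medium ones. FETUB and tf carry much of these sums, with 2670 ± 506 CPM in high, 1660 ± 178 in medium and 2350 ± 110 in low DHA at 10 dph, and 1790 ± 285, 2780 ± 161 and 2690 ± 257 CPM for the same levels at 15 dph. The other 30 rows summed to 2350 ± 160, 2050 ± 120 and 2120 ± 97.3 CPM for high, medium and low DHA at 10 dph, and to 2170 ± 170, 2440 ± 85.8 and 2660 ± 249 CPM at 15 dph. The order of means was the same, with smaller gaps between high DHA and the other levels. Each row was tested with edgeR's quasi-likelihood test, two-sided, in 1 model of all 26 libraries, with Benjamini-Hochberg adjustment over the 7292 rows tested and a threshold of 0.05. Fold changes are log2 values with their standard error (SE).

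**Figure D1:**
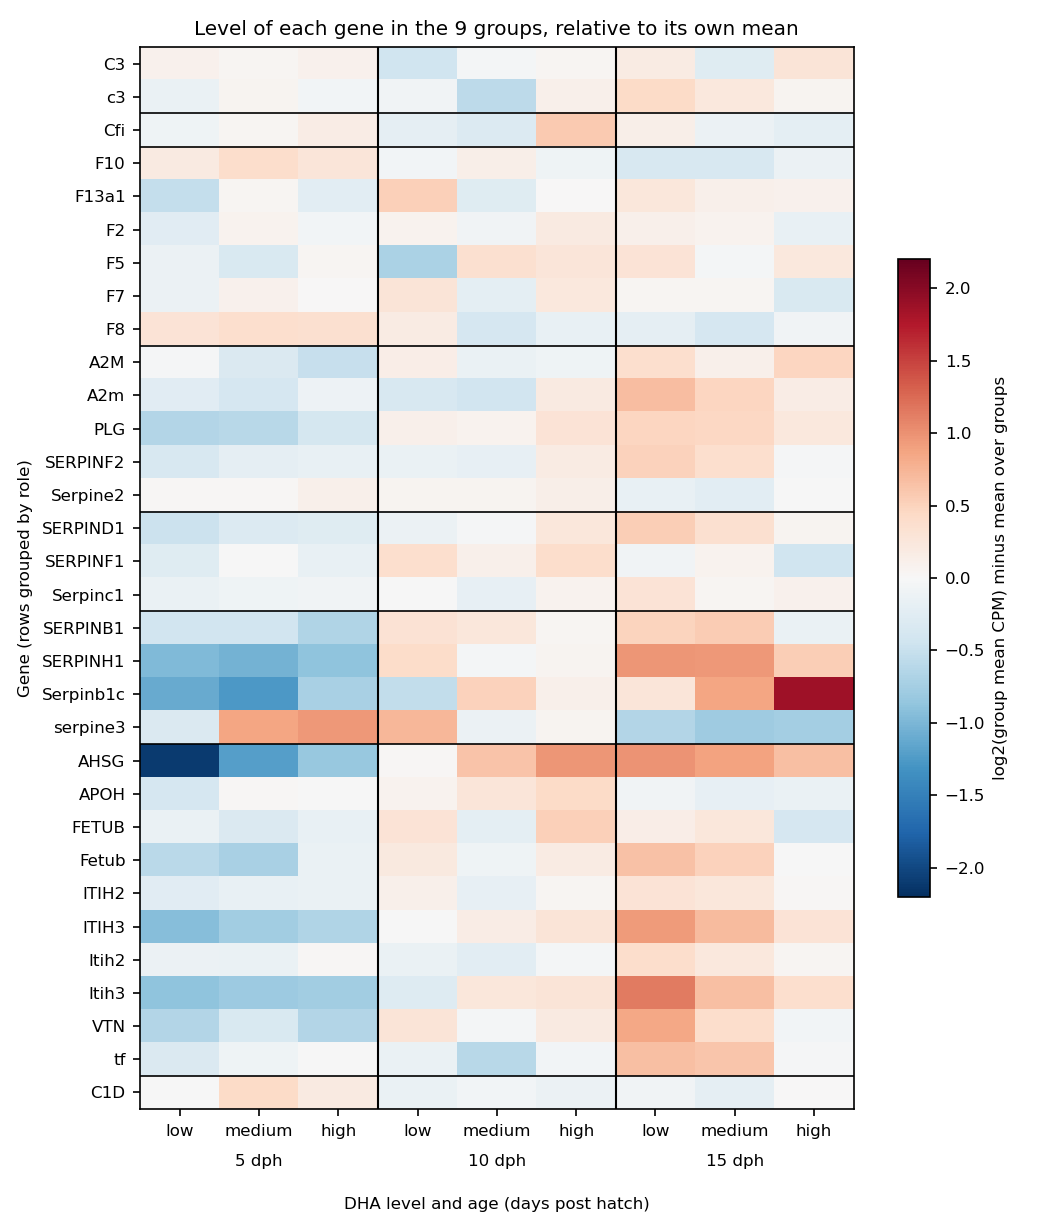
Level of each of the 32 rows in the 9 groups, as log2 of the group's mean CPM minus the row's own mean over the groups (colour), with groups ordered by age and DHA level and rows grouped by role. AHSG and Serpinb1c have the widest ranges, from 2.68 to 22.9 CPM and from 0.752 to 6.58 CPM over the group means.

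With age, more of these genes rose than fell when DHA levels were averaged. From 5 to 10 dph, averaged over DHA levels, 13 of the 32 rows rose and 4 fell, against backgrounds of 26.7% higher and 31.3% lower among all rows tested. The 5 largest rises were those of AHSG (1.92 ± 0.17, SE), SERPINH1 (1.11 ± 0.10), Serpinb1c (1.07 ± 0.25), ITIH3 (0.93 ± 0.12) and Itih3 (0.90 ± 0.15). The 4 that fell were F8 (-0.46 ± 0.13), C1D (-0.31 ± 0.08), F10 (-0.30 ± 0.05) and C3 (-0.22 ± 0.08). From 10 to 15 dph 16 rows rose and 6 fell, against backgrounds of 31.8% and 25.9%. The 5 largest rises here were Serpinb1c (0.97 ± 0.20), tf (0.69 ± 0.09), SERPINH1 (0.69 ± 0.09), Itih3 (0.64 ± 0.13) and A2m (0.63 ± 0.09). The 5 largest falls were serpine3 (-0.94 ± 0.15), SERPINF1 (-0.43 ± 0.06), APOH (-0.39 ± 0.07), F10 (-0.26 ± 0.05) and Serpine2 (-0.22 ± 0.05). As shares, 40.6% of the 32 rows rose in the first step and 50% in the second. The median log2 fold change over the 32 rows was 0.18 for the first step and 0.20 for the second, against -0.02 and 0.04 over all rows.

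The same steps were fitted within each DHA level. From 10 to 15 dph, 14 rows rose and 3 fell in low DHA (backgrounds 26.6% and 16.2%), 12 rose and 3 fell in medium DHA (17.2% and 15.6%), and 3 rose and 7 fell in high DHA (18.7% and 20.2%). The 3 rises in high DHA were Serpinb1c (1.75), A2M (0.56) and SERPINH1 (0.48), and the 7 falls were FETUB (-0.90), SERPINF1 (-0.82), serpine3 (-0.80), Cfi (-0.79), F7 (-0.57), APOH (-0.56) and F2 (-0.37). In low DHA the 5 largest rises were Itih3 (1.43), A2m (1.03), F5 (1.00), AHSG (0.95) and ITIH3 (0.95), and the falls were serpine3 (-1.37), SERPINF1 (-0.45) and F10 (-0.29). In medium DHA they were tf (1.23), SERPINH1 (0.99), A2m (0.89), c3 (0.81) and Fetub (0.59), and the falls were F10 (-0.47), APOH (-0.46) and Serpine2 (-0.29).

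From 5 to 10 dph, 16 rose and 3 fell in low (30.3% and 28.9%), 9 rose and 6 fell in medium (15.0% and 19.1%), and 10 rose and 2 fell in high DHA (8.69% and 7.68%). In that step the 5 largest rises in low DHA were AHSG (2.13), SERPINH1 (1.37), serpine3 (1.05), F13a1 (1.03) and VTN (0.93), and its 3 falls were F5 (-0.56), C3 (-0.53) and F10 (-0.27). In medium DHA the largest rises were AHSG (1.83), Serpinb1c (1.80), Itih3 (1.04), SERPINH1 (1.00) and ITIH3 (0.91), and the largest falls were serpine3 (-1.0), F8 (-0.74), c3 (-0.63), tf (-0.51) and C1D (-0.48). In high DHA the largest rises were AHSG (1.81), Itih3 (1.05), ITIH3 (0.95), SERPINH1 (0.95) and VTN (0.85), and the 2 falls were serpine3 (-0.90) and F10 (-0.36).

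These counts within a DHA level moved with the processing. With the length score as a covariate the 17 calls in low DHA from 10 to 15 dph became 1, and from 5 to 10 dph the 19 in low DHA became 6 and the 15 in medium DHA became 9. From 5 to 10 dph, the 12 in high DHA became 4 without 5 dph high replicate 2 and 5 without 5 dph high replicate 3, each of which leaves 1 library at that age, taken to vary like the other groups. The 15 in medium DHA became 9 without 5 dph medium replicate 2 or 10 dph medium replicate 3. In the later step, the 15 in medium DHA became 6 without 10 dph medium replicate 2 and 9 without 10 dph medium replicate 1 or 15 dph medium replicate 3, and the 10 in high DHA became 6 without 15 dph high replicate 3.

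Signs of the difference between high and low DHA were mostly positive at 5 dph and mostly negative at 15 dph. At 5 dph high DHA differed from low in 0 of the 32 rows, with a background of 0.0823% of all rows, and 4 of the 32 rows (12.5%) had an unadjusted p under 0.05, against 10.8% of all rows. DESeq2 called 2 rows there. At 10 dph 6 rows were higher and 1 was lower in high DHA, shares of 18.8% and 3.12% against backgrounds of 19.4% and 4.39%, so the count at 10 dph was about that of the table as a whole. At 15 dph 1 row was higher and 7 were lower, shares of 3.12% and 21.9% against 2.99% and 4.47%. The median log2 fold change of the 32 rows was 0.15 at 5 dph, 0.10 at 10 dph and -0.33 at 15 dph, where that of all rows was 0.02, 0.01 and 0.00. The sign was negative in 25 of the 32 rows at 15 dph and in 11 of 32 at 10 dph. It was positive at 10 dph and negative at 15 dph in 17 rows, and the reverse in 3. In 8 rows it was negative at both ages and in 4 positive at both. The ranges of the libraries did not overlap, with high DHA lower, in 11 of 32 rows at 15 dph (34.4%, against 12.8% of all rows), and in 4 of 32 at 10 dph (12.5%, against 13.5%).

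**Figure D2:**
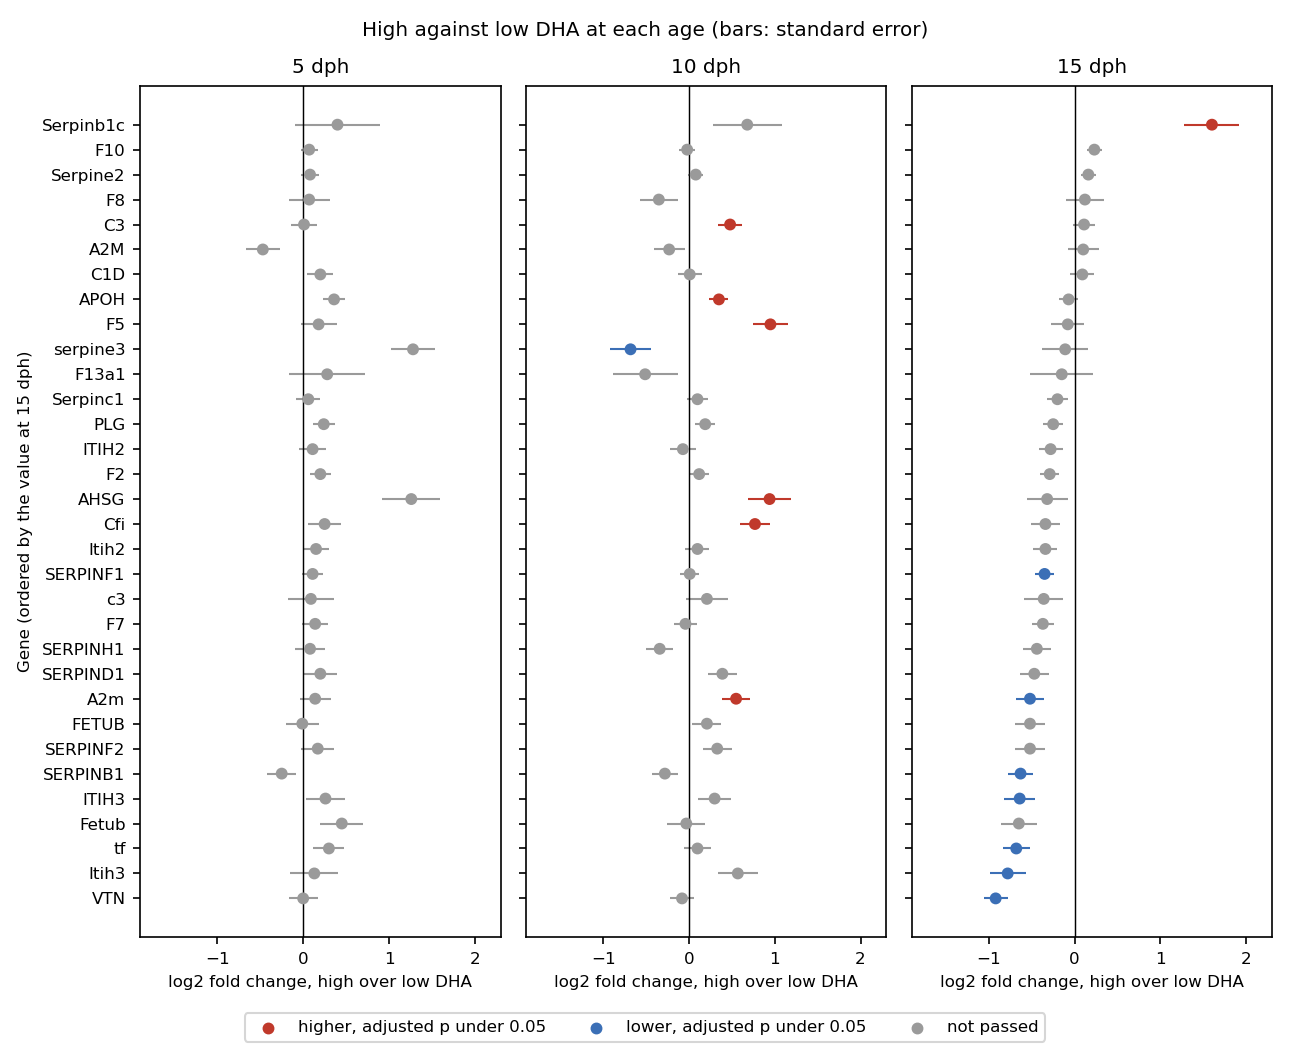
Log2 fold change of high over low DHA for each of the 32 rows at 5, 10 and 15 dph, with bars for the standard error, ordered by the value at 15 dph and coloured where the adjusted p was under 0.05. The points lie mostly right of 0 at 5 dph (28 of 32) and mostly left of 0 at 15 dph (25 of 32).

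That change was tested directly, as the high to low difference at 15 dph minus that at 10 dph. It was negative past the threshold in 9 of 32 rows (28.1%) and positive in 0, against 2.98% and 0.466% of all rows. At an unadjusted p under 0.05, 16 rows (50%) were negative and 0 positive, against 15.6% and 5.27% of all rows. The 9 were Itih3 (-1.34 ± 0.31, SE), AHSG (-1.26 ± 0.35), Cfi (-1.11 ± 0.24), A2m (-1.07 ± 0.22), F5 (-1.03 ± 0.27), ITIH3 (-0.94 ± 0.27), SERPINF2 (-0.86 ± 0.24), SERPIND1 (-0.85 ± 0.24) and VTN (-0.84 ± 0.20). From 5 to 10 dph the difference changed in 1 row, serpine3 (-1.95 ± 0.35, adjusted p = 0.005), with backgrounds of 13.6% higher and 4.53% lower. These comparisons share libraries with those at single ages and are not independent of them. The count of 9 fell to 1 without 10 dph low DHA replicate 2, to 2 without 10 dph high replicate 1, to 3 without 10 dph low replicate 3, 15 dph low replicate 1, 15 dph high replicate 2 or 15 dph high replicate 3, and to 5 without 10 dph high replicate 2. It was 0 with the length score as a covariate and 2 from the libraries of the 4 compared groups alone.

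The counts within an age also rested on few libraries. At 15 dph the 8 calls became 2 without high DHA replicate 2, 4 without high replicate 3 or low replicate 3, and 5 without low replicate 1. At 10 dph the 7 calls became 2 without low DHA replicate 2, 3 without high replicate 1, and 4 without high replicate 2 or low replicate 3. VTN and Serpinb1c at 15 dph, and F5 and Cfi at 10 dph, passed without any 1 of the 6 libraries compared. The length score separated high from low DHA at 10 dph (-2.60 ± 0.243 against -3.55 ± 0.695, SD, n = 3 each) but hardly at 15 dph (-2.31 ± 0.125 against -2.39 ± 0.128). With the score as a covariate 0 of the 7 calls at 10 dph passed, while all 8 at 15 dph did.

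**Figure D3:**
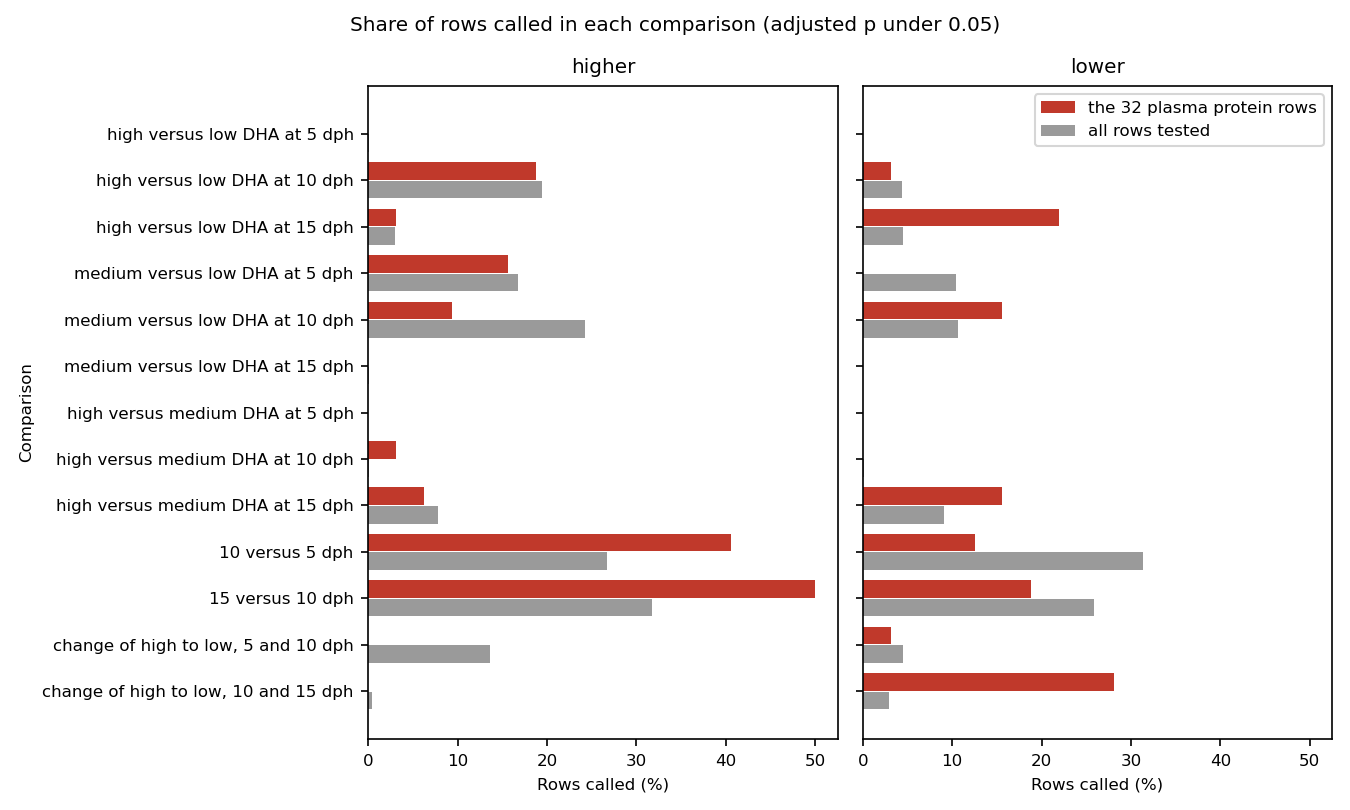
Percentage of rows called higher (left) and lower (right) at an adjusted p under 0.05, for the 32 rows and for all rows tested, in each of 13 comparisons. The 32 are labelled plasma protein rows, though C1D and the serpins of cells and tissues are among them. The plasma protein bar exceeds the bar of all rows most clearly for lower calls at 15 dph (21.9% against 4.47%) and for the fall of the high to low difference from 10 to 15 dph (28.1% against 2.98%).

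Of the complement proteins, 3 rows were measured. C3, the protein on which the complement pathways meet, had 108, 103 and 90.0 CPM in high and 104, 86.2 and 93.7 CPM in medium DHA at 10 dph, against 77.5, 62.4 and 75.5 CPM in low DHA. Each high and medium library lay above each low one. The log2 fold change was 0.48 ± 0.14 for high over low (adjusted p = 0.0141) and 0.40 ± 0.14 for medium over low (adjusted p = 0.0251). At 15 dph C3 had 105, 110 and 139 CPM in high DHA, against 65.4, 84.5 and 91.7 CPM in medium DHA (0.55 ± 0.13, adjusted p = 0.00893), and low DHA, with 129, 94.3 and 106 CPM, overlapped high and lay above each medium library (medium over low -0.45 ± 0.13, adjusted p = 0.326). Medium DHA had the lowest C3 libraries at this age and low DHA those at 10 dph. Leaving out 1 library at a time, C3 kept its call in 3 of 6 cases for high over low and 2 of 6 for medium over low at 10 dph, and in 4 of 6 for high over medium at 15 dph. The second row, c3, averaged 11.6 ± 1.14 CPM in high and 10.1 ± 4.13 CPM in low DHA at 10 dph and differed in no DHA comparison. With age, averaged over DHA levels, c3 rose from 10 to 15 dph (0.42 ± 0.14), and C3 fell from 5 to 10 dph and rose again after it (0.21 ± 0.08).

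Cfi encodes factor I, the plasma protease that cuts active C3 fragments. It had 33.6, 34.0 and 33.0 CPM in high DHA at 10 dph, against 17.9, 14.9 and 21.8 CPM in medium and 18.7, 21.4 and 18.8 CPM in low DHA. The 3 high libraries were close to each other and above all of the other 6. High exceeded medium by 0.88 ± 0.17 (adjusted p = 0.0441) and low by 0.77 ± 0.17 (adjusted p = 0.00371), the lower of the 2 being 1.71-fold. Cfi was the only one of the 32 rows that differed between high and medium DHA at 10 dph, where the backgrounds were 0.0549% higher and 0.0823% lower. The call against medium was lost without high replicate 1, 2 or 3 or medium replicate 2 (log2 fold change 0.76 to 1.03 over the 6 cases). At 15 dph Cfi had 22.4, 19 and 16.8 CPM in high and 30.3, 21.0 and 22.3 CPM in low DHA, which overlapped, and the difference fell between the ages in all 12 cases that left out 1 library (-1.21 to -0.93). With age averaged over DHA levels Cfi passed in neither step.

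**Figure D4:**
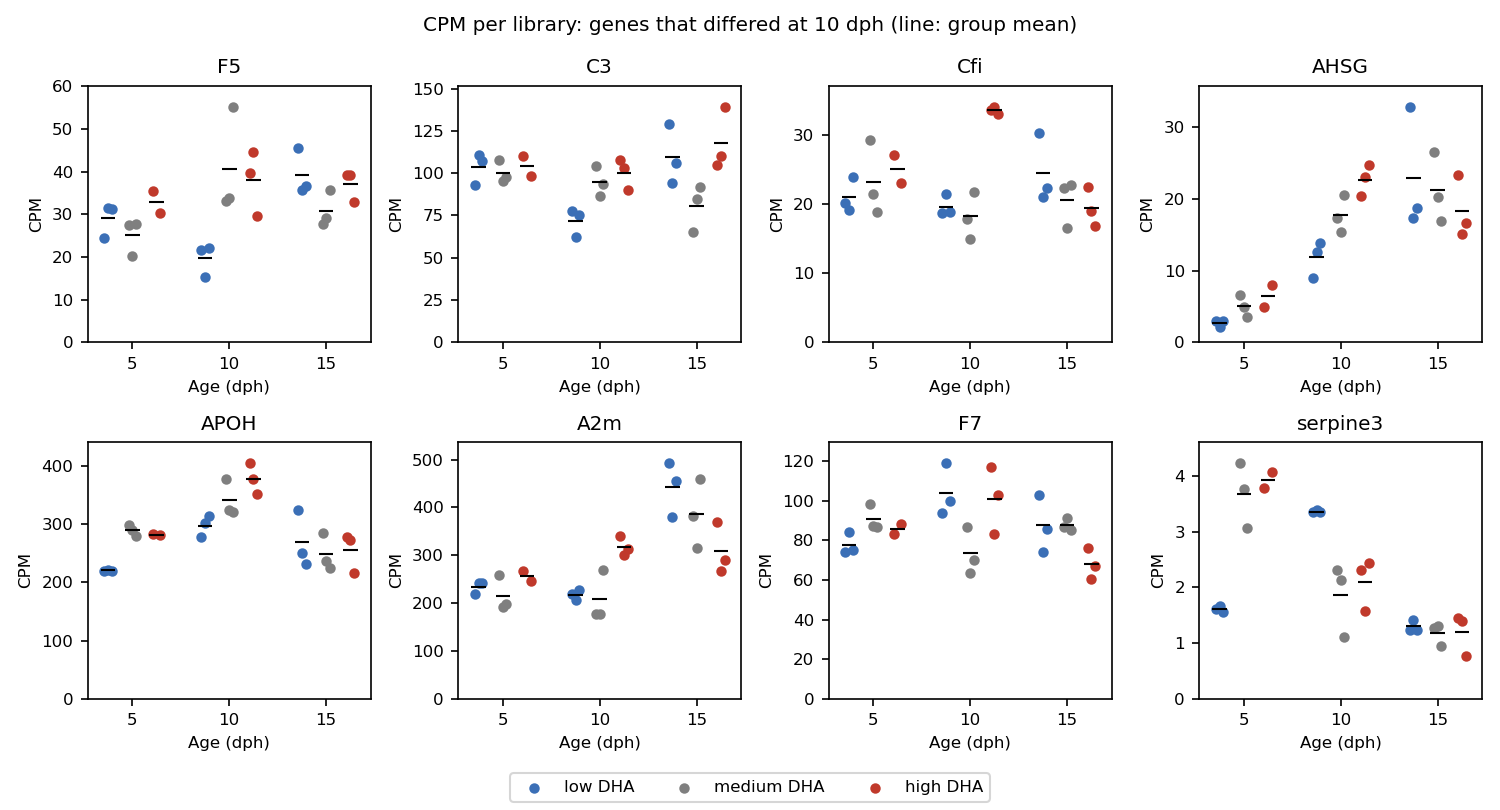
CPM of 8 genes in each library by age, with points coloured by DHA level from low to high and a line at each group mean; all 8 differed between DHA levels at 10 dph. At that age F5 and C3 sit lowest in low DHA, Cfi sits at 33.0 to 34.0 CPM in high DHA alone, and F7 sits lowest in medium DHA.

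Among the 6 coagulation factors, F5 had the largest DHA differences at 10 dph. F5 is the cofactor that speeds the making of thrombin by F10. At 10 dph it had 39.7, 44.7 and 29.7 CPM in high and 33.1, 33.9 and 55.1 CPM in medium DHA, against 21.7, 15.3 and 22 CPM in low DHA. The low libraries lay below all 6 others. High over low was 0.95 ± 0.20 (adjusted p = 0.00275) and medium over low 1.05 ± 0.20 (adjusted p = 0.00032), about 1.93-fold and 2.07-fold. At 15 dph the level in low DHA was 45.6, 35.6 and 36.6 CPM, beside 39.2, 39.2 and 32.9 CPM in high DHA, and the groups overlapped. At 5 dph low DHA had 24.5, 31.5 and 31.3 CPM, so F5 fell in low DHA from 5 to 10 dph (-0.56) and rose after it (1.00). With the length score as a covariate that first step was 0.24 (adjusted p = 0.611), of the other sign, and the high to low difference at 10 dph was 0.46 (adjusted p = 0.47).

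F7, the protease that starts clotting with tissue factor, passed in 1 DHA comparison. It had 86.9, 63.4 and 70.3 CPM in medium DHA at 10 dph, against 93.8, 119 and 100 CPM in low DHA (-0.50 ± 0.13, adjusted p = 0.00509), and this held without any 1 of the 6 libraries but not with the length score as a covariate (-0.40, adjusted p = 0.251). High DHA, with 117, 83.2 and 103 CPM, differed from low by -0.04 ± 0.13 (95% interval -0.32 to 0.23, adjusted p = 0.848). F2, the precursor of thrombin, was higher in medium than low DHA at 5 dph, with 193, 169 and 143 CPM against 130, 137 and 134 CPM (0.33 ± 0.11, adjusted p = 0.0324). That call was kept in 1 of 6 cases with a library left out. At 15 dph F2 averaged 141 ± 19.5 CPM in high and 172 ± 23.3 CPM in low DHA (-0.29 ± 0.11, adjusted p = 0.122).

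The other clotting factors passed in no DHA comparison. F10, the protease that makes thrombin, fell in both age steps averaged over DHA levels. At 15 dph F10 averaged 79.7 ± 4.85 CPM in high and 67.9 ± 4.43 CPM in low DHA, with no overlap of libraries (0.23 ± 0.09, adjusted p = 0.133). F8, the cofactor lacking in haemophilia A, fell from 5 to 10 dph averaged over DHA levels, and its group means ran from 9.87 to 16.5 CPM. F13a1, the enzyme that crosslinks fibrin, varied widely between libraries, from 5.05 to 16.9 CPM. Its averages at 10 dph were 9.87 ± 0.533 CPM in high and 14.1 ± 2.58 CPM in low DHA (-0.51 ± 0.38, adjusted p = 0.348). In the reference annotation F2 and F10 lie close together, with 7 coding genes between them. Their age patterns were unlike, since F2 passed in neither averaged age step.

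For clot removal, 5 rows were measured. PLG, the precursor of plasmin, rose in both age steps when DHA levels were averaged (0.71 ± 0.07 and 0.23 ± 0.07). In high DHA alone its mean was 172 ± 16.4 CPM at 10 dph and 165 ± 14.1 CPM at 15 dph. At 15 dph PLG averaged 196 ± 25.4 CPM for low and 193 ± 7.6 CPM for medium DHA. It differed between DHA levels at no age, the difference of high from low at 15 dph being -0.25 ± 0.12 (adjusted p = 0.223). SERPINF2, the plasmin inhibitor, rose from 10 to 15 dph when DHA levels were averaged (0.32 ± 0.10), but not in high DHA alone. It had 55.4, 51.4 and 46.2 CPM in high and 41.9, 40.1 and 39.6 CPM in low DHA at 10 dph, and 55.4, 34.6 and 42.4 CPM in high and 79.2, 51.2 and 59.9 CPM in low DHA at 15 dph. Neither difference passed (0.33 ± 0.17, adjusted p = 0.165, and -0.52 ± 0.17, adjusted p = 0.0584), while the change between them did (adjusted p = 0.0498), in 4 of 12 cases with a library left out. Serpine2, an inhibitor of thrombin and plasminogen activators in mammals, was steady, with group means of 25.1 to 32.5 CPM. It fell from 10 to 15 dph when DHA levels were averaged.

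Alpha-2-macroglobulin, a large plasma trap for many proteases, has 2 rows that behaved differently. A2m had 340, 300 and 313 CPM in high DHA at 10 dph, against 218, 206 and 228 CPM in low DHA (0.55 ± 0.16, adjusted p = 0.016). At 15 dph the order was the opposite, with 370, 266 and 290 CPM in high DHA against 492, 380 and 456 CPM in low DHA (-0.52 ± 0.16, adjusted p = 0.0464). The libraries did not overlap at either age. The calls were kept in 3 of 6 and 2 of 6 cases with a library left out, and the change between ages (adjusted p = 0.0122) in 11 of 12, the exception being 10 dph low replicate 2 (adjusted p = 0.0553). The row A2M had 148, 161 and 213 CPM in high and 141, 161 and 183 CPM in low DHA at 15 dph, a difference of 0.10 ± 0.18, and passed in no DHA comparison. From 10 to 15 dph both rows rose when DHA levels were averaged (A2m 0.63 ± 0.09, A2M 0.35 ± 0.10). Within DHA levels, A2m passed in low and medium DHA only. In high DHA A2m averaged 318 ± 20.3 CPM at 10 dph and 309 ± 54.3 CPM at 15 dph.

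Of the 3 plasma serpins, SERPINF1 differed with DHA. It encodes pigment epithelium-derived factor, a secreted serpin that inhibits no protease and restrains vessel growth in mammals. At 15 dph it had 26.2, 29.6 and 26.8 CPM in high DHA, against 38.8, 44.0 and 35.1 CPM in medium and 34.0, 33.7 and 37.9 CPM in low DHA. All 3 high libraries lay below the other 6. High was lower than medium by -0.51 ± 0.11 (adjusted p = 0.00406, held in 6 of 6 cases with a library left out) and lower than low by -0.35 ± 0.11 (adjusted p = 0.0441, held in 1 of 6). Over age, with DHA levels averaged, SERPINF1 rose and then fell (0.43 ± 0.06 and -0.43 ± 0.06). SERPIND1, heparin cofactor II, averaged 41.7 ± 7.13 CPM in high and 32.0 ± 3.34 CPM in low DHA at 10 dph, and 36.8 ± 6.73 and 50.8 ± 13.2 CPM at 15 dph. It passed at neither age, and the change between them passed in 5 of 12 cases with a library left out. Serpinc1, antithrombin, the main plasma inhibitor of thrombin, had group means of 60.8 to 84.3 CPM and differed in no DHA comparison. It rose from 10 to 15 dph averaged over DHA levels (0.18 ± 0.07), with means of 72.7 and 73.4 CPM in high DHA.

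The serpins of cells and tissues, 4 rows, all passed in at least 1 DHA comparison within an age, as did 61.4% of all rows. Serpinb1c had the largest difference of the 32 rows at 15 dph, with 7.22, 8 and 4.51 CPM in high DHA, against 4.22, 2.82 and 2.77 CPM in medium and 2.81, 2.35 and 1.35 CPM in low DHA. Every high library lay above every other. High over low was 1.60 ± 0.32 (adjusted p = 0.00429, 3.03-fold) and high over medium 1.00 ± 0.31 (adjusted p = 0.0313, kept in 2 of 6 cases with a library left out). At 10 dph medium DHA, with 2.06, 2.52 and 3.11 CPM, exceeded low DHA, with 0.497, 1.91 and 1.30 CPM (1.08 ± 0.39, adjusted p = 0.0342, kept in 2 of 6). SERPINB1, named for the inhibitor of neutrophil elastase of mammals, moved the other way. It had 161, 124 and 174 CPM in high DHA at 15 dph, against 200, 241 and 299 CPM in medium and 189, 245 and 276 CPM in low DHA. High was lower than both, by -0.69 ± 0.15 against medium (adjusted p = 0.0053) and -0.63 ± 0.15 against low (adjusted p = 0.0133), without overlap. The first of these held in 6 of 6 cases with a library left out and the second in 3 of 6. The 2 rows carry names of closely related genes.

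SERPINH1, a chaperone of collagen in the endoplasmic reticulum and not a plasma protein, rose in both age steps (1.11 ± 0.10 and 0.69 ± 0.09). In medium DHA at 10 dph it had 66.7, 112 and 115 CPM against 132, 134 and 131 CPM in low DHA (-0.44 ± 0.16, adjusted p = 0.0373, kept in 3 of 6 cases with a library left out). At 15 dph it averaged 146 ± 16.2 CPM in high and 198 ± 17.6 CPM in low DHA, without overlap, and did not pass (-0.44 ± 0.16, adjusted p = 0.0906). The row serpine3 crossed over with age. At 5 dph it had 3.78 and 4.07 CPM in high and 4.23, 3.77 and 3.06 CPM in medium DHA, against 1.62, 1.66 and 1.56 CPM in low DHA. At 10 dph it had 2.31, 1.57 and 2.43 CPM in high and 2.32, 2.14 and 1.11 CPM in medium DHA, against 3.35, 3.39 and 3.35 CPM in low DHA. The low libraries lay below all others at 5 dph and above all others at 10 dph. Medium over low was 1.19 ± 0.24 at 5 dph (adjusted p = 0.00561) and -0.87 ± 0.24 at 10 dph (adjusted p = 0.00706), and high over low was 1.28 ± 0.26 (adjusted p = 0.0578) and -0.68 ± 0.24 (adjusted p = 0.0411). The last of these calls was kept in 1 of 6 cases with a library left out, while the shift of the high to low difference from 5 to 10 dph passed in all 11. By 15 dph the 3 groups averaged 1.30 (low), 1.17 (medium) and 1.21 CPM (high).

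The 10 carrier, matrix and acute phase rows were all lower on average in high than in low DHA at 15 dph, with a median log2 fold change of -0.58. Of the 10, 4 passed, against 4.47% of all rows. Some of the 10 share a name (FETUB, ITIH2 and ITIH3, each in 2 spellings) and may not be independent. Among the 4, ITIH3 and Itih3 share a name and did not pass without 15 dph low replicate 1. VTN encodes vitronectin, a plasma and matrix protein that binds integrins and guards cells from complement. It had 61.1, 41.9 and 41.7 CPM in high DHA at 15 dph, against 69.0, 60.9 and 68.9 CPM in medium and 108, 81.5 and 83.9 CPM in low DHA. High and low did not overlap, while the highest high library exceeded the lowest medium one. High over low was -0.92 ± 0.14 (adjusted p = 0.00077), or 0.528 times the low level, and high over medium was -0.46 ± 0.14 (adjusted p = 0.0326, kept in 2 of 6 cases with a library left out). At 10 dph high and low differed by -0.08 ± 0.14 (adjusted p = 0.715). In low DHA VTN rose in each age step (0.93 and 0.57), and in high DHA it rose from 5 to 10 dph (0.85) and did not pass from 10 to 15 dph.

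The gene tf, which encodes transferrin, the iron carrier of plasma, had 835, 643 and 773 CPM in high DHA at 15 dph. That compares with 1200, 1010 and 1300 CPM in medium and 1130, 1130 and 1340 CPM in low DHA. High lay below both other groups in every library, by -0.64 ± 0.16 against medium (adjusted p = 0.00922) and -0.68 ± 0.16 against low (adjusted p = 0.0105). The first call was lost without high replicate 2 (adjusted p = 0.0641), and the second without high replicate 2 or low replicate 3 (adjusted p up to 0.0897). At 10 dph tf was low in medium DHA, with 463, 510 and 520 CPM against 644, 735 and 676 CPM in low DHA (-0.46 ± 0.16, adjusted p = 0.0266, kept in 3 of 6 cases with a library left out), and high DHA had 760, 631 and 805 CPM. From 10 to 15 dph tf rose in low and medium DHA (0.81 and 1.23) and did not pass in high DHA.

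The heavy chains of inter-alpha-trypsin inhibitor, which attach to hyaluronan and steady the matrix around cells, have 4 rows. ITIH3 had 25, 21.1 and 24.0 CPM in high DHA at 15 dph, against 51.0, 31.3 and 27.3 CPM in low DHA (-0.64 ± 0.18, adjusted p = 0.035). Itih3 had 9.34, 7.71 and 6.93 CPM in high and 20.7, 11.5 and 8.97 CPM in low DHA (-0.78 ± 0.21, adjusted p = 0.0269), and here the ranges overlapped. In both rows 15 dph low replicate 1 stood far above the other libraries of its group. Without it the difference was -0.32 for ITIH3 and -0.35 for Itih3, and neither passed. That library was the highest of its group in 24 of the 32 rows. At 10 dph the sign was positive in both rows (0.30 ± 0.19 and 0.57 ± 0.23) and neither passed. ITIH2 and Itih2 differed in no DHA comparison. At 15 dph ITIH2 averaged 34.3 ± 3.45 CPM in high and 41.8 ± 3.36 CPM in low DHA, and Itih2 97.4 ± 14.3 and 123 ± 13.7 CPM. Averaged over DHA levels, ITIH3 and Itih3 rose in both age steps, and ITIH2 and Itih2 from 10 to 15 dph (0.20 ± 0.08 and 0.37 ± 0.08). That call of ITIH2 was kept in 5 of 18 cases with a library left out. In high DHA alone none of the 4 rows passed from 10 to 15 dph. There the means were 23.3 and 23.4 CPM for ITIH3, 7.53 and 8 for Itih3, 34.9 and 34.3 for ITIH2, and 90.9 and 97.4 for Itih2.

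**Figure D5:**
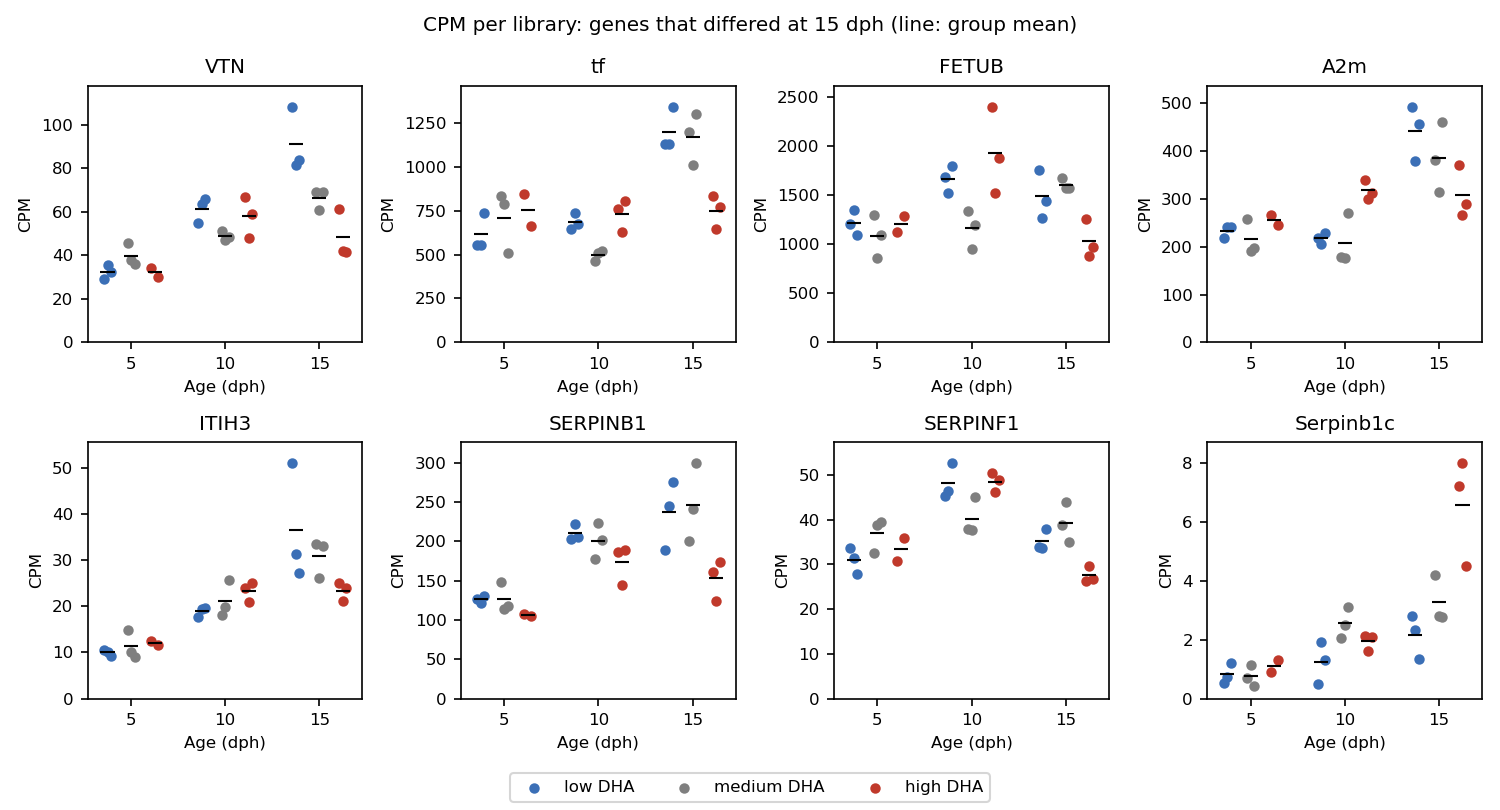
CPM of 8 genes in each library by age, with points coloured by DHA level from low to high and a line at each group mean; all 8 differed between DHA levels at 15 dph, FETUB between high and medium only. At that age high DHA sits below low DHA in every library of VTN, tf, FETUB, A2m, ITIH3, SERPINB1 and SERPINF1, and above it for Serpinb1c.

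The fetuins are secreted liver glycoproteins, of which fetuin-A, from AHSG, keeps calcium phosphate in solution and fetuin-B, from FETUB, inhibits an egg protease in mice. AHSG had the largest rise of all 32 rows from 5 to 10 dph. At 5 dph it had 4.97 and 8.03 CPM in high and 6.63, 4.90 and 3.48 CPM in medium DHA, against 2.94, 2.10 and 2.99 CPM in low DHA. At 10 dph it had 20.4, 23.0 and 24.7 CPM in high and 17.4, 15.4 and 20.6 CPM in medium DHA, against 9.01, 12.6 and 13.9 CPM in low DHA. At 15 dph the 3 levels overlapped, at 22.9 ± 8.61 CPM for low, 21.3 ± 4.91 for medium and 18.4 ± 4.42 for high DHA. Low DHA thus had the lowest libraries at 5 and 10 dph and not at 15 dph. Medium over low passed at 5 dph (0.90 ± 0.32, adjusted p = 0.0431, kept in 1 of 6 cases with a library left out) and high over low at 10 dph (0.94 ± 0.25, adjusted p = 0.0105, lost without low replicate 2, adjusted p = 0.0535). High over low at 5 dph was 1.26 ± 0.34 (adjusted p = 0.143).

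FETUB had 1260, 880 and 977 CPM in high DHA at 15 dph, against 1680, 1580 and 1570 CPM in medium and 1760, 1270 and 1440 CPM in low DHA. All high libraries lay below the others. High over medium was -0.64 ± 0.17 (adjusted p = 0.0143, lost without high replicate 2 with an adjusted p of 0.084), and high over low was -0.52 ± 0.17 (adjusted p = 0.0603). At 10 dph FETUB was low in medium DHA, with 1340, 950 and 1200 CPM against 1690, 1520 and 1800 CPM in low DHA (-0.52 ± 0.17, adjusted p = 0.0195, lost without medium replicate 2 with an adjusted p of 0.112). In the row Fetub, means at 15 dph were 7.34 ± 2.88 CPM in high and 11.5 ± 2.31 CPM in low DHA (-0.65 ± 0.21, adjusted p = 0.0601). It differed in no DHA comparison and rose from 5 to 10 dph averaged over DHA levels (0.59 ± 0.13).

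APOH, a plasma glycoprotein that binds charged phospholipids, peaked at 10 dph. At 5 dph it had 284 and 281 CPM in high and 299, 291 and 280 CPM in medium DHA, against 220, 222 and 220 CPM in low DHA, and medium over low passed (0.39 ± 0.11, adjusted p = 0.0169) while high over low did not (0.36 ± 0.13, adjusted p = 0.318). The low libraries were below all others at this age. At 10 dph it had 405, 379 and 352 CPM in high and 278, 302 and 314 CPM in low DHA (0.35 ± 0.11, adjusted p = 0.0315). These calls were kept in 3 of 6 and 1 of 6 cases with a library left out. At 15 dph means were 256 ± 33.8 CPM in high and 269 ± 49 CPM in low DHA, a difference of -0.07 ± 0.11.

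Medium DHA was compared with both other levels. At 5 dph 5 rows were higher in medium than low DHA and 0 lower, against backgrounds of 16.7% and 10.4%, and these were serpine3, AHSG, C1D (0.42 ± 0.14), APOH and F2. At 10 dph medium exceeded low in Serpinb1c, F5 and C3 and was below it in serpine3, FETUB, F7, tf and SERPINH1, counts of 3 and 5 against backgrounds of 24.3% and 10.6%. At 15 dph medium and low differed in 0 rows by edgeR (background 0.0686%), with 3 rows at an unadjusted p under 0.05 (9.02% of all rows). DESeq2 called 0 of the 32 rows there and 21 of all rows. High and medium differed there in 7, of which C3 and Serpinb1c were higher and SERPINB1, FETUB, tf, SERPINF1 and VTN lower in high DHA (backgrounds 7.84% and 9.08%). High and medium differed in 0 rows at 5 dph by edgeR (background 0%), with 1 row at an unadjusted p under 0.05 (19.4% of all rows). DESeq2 called 0 of the 32 rows in that comparison and 44 of all rows. The 5 calls at 5 dph became 0 without medium DHA replicate 2, 1 without low replicate 3, 2 without low replicate 1 or 2, and 8 without medium replicate 3. The 8 at 10 dph became 5 without medium replicate 2, and the 7 between high and medium at 15 dph became 3 without high replicate 2. With the length score as a covariate 0 of the 5 calls at 5 dph and 0 of the 8 at 10 dph passed. In all, 19 of the 32 rows (59.4%) passed in at least 1 of the 9 comparisons of DHA levels within an age, against 61.4% of all rows.

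C1D, the row outside the plasma system, averaged 24.3 ± 4.93 CPM in medium and 18.1 ± 1.61 CPM in low DHA at 5 dph and did not pass in the other DHA comparisons. Without it the counts for high over low were 6 higher and 1 lower at 10 dph and 1 higher and 7 lower at 15 dph, out of 31.

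Other genes of the same systems were set beside the 32 rows. The lists count only genes that had a row, and many planned names had none, among them ALB and HP of liver secretion. Over all rows tested, 19.4% were higher and 4.39% lower in high than low DHA at 10 dph, and 2.99% and 4.47% at 15 dph. For medium over low DHA at 10 dph these shares were 24.3% and 10.6%. Of 7 complement genes that the rule did not take, 1 was higher and 0 lower in high than low DHA at 15 dph. It was CLU, clusterin, a secreted inhibitor of the terminal complement complex (0.79 ± 0.19, adjusted p = 0.0129), with 115 ± 20.6 CPM in high and 66.7 ± 6.85 CPM in low DHA. At 10 dph C1ql1, a secreted C1q-like protein of neurons in mammals, was the 1 that passed (0.24 ± 0.08). In medium over low DHA at that age, Itgam, a subunit of a complement receptor of leukocytes (1.07 ± 0.25), and CLU (0.70 ± 0.19) were higher. Mbl2, a mannose-binding lectin, was lower (-2.50 ± 0.66, at 0.219 ± 0.0225 against 1.27 ± 0.502 CPM), and in medium DHA it was near the floor of detection. Of 13 clotting genes outside the rule, 2 were higher in high than low DHA at 10 dph and 0 differed at 15 dph. The 2 were Itgb3, a platelet integrin subunit (0.73 ± 0.18), and KLKB1, named for plasma prekallikrein, which was at 0 counts in all 3 low libraries and at 0.188 to 0.395 CPM in the high ones. The row Klkb1, spelled in other capitals, averaged 47.2 ± 8.14 CPM in high and 50.1 ± 5.45 CPM in low DHA and did not pass (-0.08 ± 0.16, adjusted p = 0.734), so the call concerns a row near the floor of detection. Over age, with DHA levels averaged, PROC, the anticoagulant protein C, rose from 5 to 10 dph (0.63 ± 0.11). The inhibitors of tissue factor Tfpi (0.38 ± 0.07 and 0.31 ± 0.07) and TFPI2 (0.21 ± 0.07 and 0.46 ± 0.07) rose in both averaged steps.

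Some liver and gut genes outside plasma defence were also lower in high than low DHA at 15 dph, where 4.47% of all rows were lower and 2.99% higher. Of 7 other genes of liver secretion, 3 were lower and 0 higher in high than low DHA at 15 dph, namely Apob (-0.51 ± 0.13), APOC2 (-0.50 ± 0.15) and apoa1 (-0.43 ± 0.11), which encode lipoprotein proteins. Their summed level was 20400 ± 2370 CPM in high and 27600 ± 477 CPM in low DHA, with library ranges of 17800 to 22400 and 27100 to 27900. Of 12 genes of liver enzymes, used as markers of hepatocytes, 3 were lower and 0 higher at 15 dph, CYP8B1 (-0.65 ± 0.13), CYP7A1 (-0.63 ± 0.18) and Fah (-0.34 ± 0.09), of which the first 2 serve bile acid synthesis and the last tyrosine breakdown. The enzymes summed to 2750 ± 320 CPM (2400 to 3020) in high and 3360 ± 81.2 CPM (3280 to 3450) in low DHA, and no liver enzyme was at 0 counts in any library. At 10 dph the enzyme sums were 3130 ± 270 CPM in high and 3510 ± 264 CPM in low DHA, and 1 of 12, CYP7A1 (0.53 ± 0.18), was higher (background 19.4%). At 5 dph the sums were 6290 ± 818 CPM in medium and 5150 ± 221 CPM in low DHA, and 6 of 12 were higher in medium (background 16.7%). Of 10 enterocyte marker rows, 2 were lower and 0 higher in high than low DHA at 15 dph, FABP2, a fatty acid binding protein (-0.81 ± 0.16), and ANPEP, a brush border peptidase (-0.48 ± 0.12). Their sum was 2980 ± 132 CPM (2850 to 3120) in high, 3800 ± 144 CPM (3660 to 3950) in medium and 3870 ± 355 CPM (3580 to 4270) in low DHA. Sums of exocrine pancreas, leukocyte and endothelium markers overlapped between high and low DHA at this age. The part of these liver and gut gene levels in the plasma protein differences was not tested.

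Of 9 transcription factor genes of the liver, CEBPD, HNF4G and CREB3L3 were higher in high than low DHA at 10 dph, where 19.4% of all rows were higher. CEBPD, a factor that switches on acute phase genes in mammals, averaged 359 ± 107 CPM in high and 168 ± 43 CPM in low DHA (1.10 ± 0.21, adjusted p = 0.002). At 15 dph it averaged 77.2 ± 18.6 and 124 ± 22.1 CPM (-0.68 ± 0.21, adjusted p = 0.0464), and the change between the ages was -1.79 ± 0.30. HNF4G followed, at 0.69 ± 0.19 and -0.72 ± 0.19, with a change of -1.41 ± 0.27. CREB3L3, a factor of liver secretion, passed at 10 dph alone (0.33 ± 0.08). Of 5 genes of acute phase signalling, IL6R, the interleukin-6 receptor, and Lifr were higher at 10 dph (1.40 ± 0.24 and 0.68 ± 0.13). At 15 dph 0 of 5 differed, against 7.46% of all rows. Other planned genes had no row and could not be examined, such as IL6, STAT3, SOCS3, TNF, SAA1 and CRP of acute phase signalling. The same holds for HNF4A and FOXA1 among the liver transcription factors. IL6R averaged 4.05 ± 0.95 CPM in high and 1.53 ± 0.204 CPM in low DHA at 10 dph. Leukocyte markers moved too at 10 dph, where 4 of 5 were higher in high than low DHA (background 19.4%), with sums of 561 ± 167 and 310 ± 19.8 CPM (371 to 682 and 290 to 329). Their part, and that of the length score, in the differences at 10 dph was not tested for these lists.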

How the data were processed

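The authors deposited whole-number raw counts, 1 row to a gene name. Per the submitters' processing notes DESeq2 was used, with no version given. For the aligner, counting program, build and summing step, nothing is given in the sources used here. Columns were matched to samples by title. The 4 internal controls were not analysed here. Testing used edgeR 4.0.16 (R 4.3.3): filterByExpr (3 rows removed, 7292 tested), TMM scaling, a mean for each of 9 groups, a robust quasi-likelihood F-test and Benjamini-Hochberg adjustment over all tested rows at 0.05. The common biological coefficient of variation was 11.9%. SE comes from the F statistic. The script was tested on simulated data. Of the 27 names, 14 match RefSeq symbols of assembly fThuThy2.1.

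The 32 rows, the role groups and the lists were chosen with earlier results of these data known. All rows that pass were named where 10 or fewer passed, otherwise the 5 largest rises and falls. In each role group the 2 rows with the highest mean CPM are described with levels, and for other lists up to 4 genes with the smallest p. Values of other genes were chosen after they were seen. All 3 same-numbered pairs of libraries had deviations correlated over 0.1 in 2 comparisons (medium and low DHA at 15 dph, 15 and 10 dph in high DHA). So had the 2 such pairs available for 10 and 5 dph in high DHA, which are not independent of each other. Alternatives were DESeq2 1.42.0, RLE size factors, no filter, only the compared groups, summed names, a replicate block, a length score and leaving out each library. Leaving out both libraries of lowest TMM factor was added after seeing the data. The lowest chi-square per gene between replicates of a group was 4.43, so no library repeated the counts of another in its group. The value cannot tell whether libraries came from the same larvae.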

Additional observations from a re-analysis of the deposited data

Results flagged for a closer look

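The difference between high and low DHA changed between ages in 10 of the 32 rows by a test of that change itself. That was 1 row from 5 to 10 dph (3.12%, against 18.1% of all rows). From 10 to 15 dph it was 9 rows (28.1%, against 3.44% of all rows). Neither count held with the length score as a covariate. From 5 to 10 dph the difference changed in serpine3, by -1.95 on the log2 scale (adjusted p = 0.005). From 10 to 15 dph it fell in Itih3 (-1.34, adjusted p = 0.0205), AHSG (-1.26, adjusted p = 0.0466), Cfi (-1.11, adjusted p = 0.0126), A2m (-1.07, adjusted p = 0.0122) and F5 (-1.03, adjusted p = 0.0363). It also fell in ITIH3 (-0.94, adjusted p = 0.0498), SERPINF2 (-0.86, adjusted p = 0.0498), SERPIND1 (-0.85, adjusted p = 0.0472) and VTN (-0.84, adjusted p = 0.0265). Of these 9, Cfi passed in each of the 12 analyses that left out 1 library, A2m in 11, Itih3 in 10, VTN in 6, SERPIND1 in 5, F5 and SERPINF2 in 4, AHSG in 3 and ITIH3 in 2. Groups of 3 libraries were not tested for single libraries that stand apart.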

How the results depend on the processing

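1 called fold change turned its sign, that of F5 from 5 to 10 dph in low DHA, which was 0.24 and not past the threshold with the length score. The counts for the 2 age steps averaged over DHA levels stayed within 1.5 times under every alternative run (16 to 20 and 19 to 23 with a library left out). Within a DHA level, from 5 to 10 dph 19 in low DHA became 6 with the length score, 15 in medium DHA 9 with the length score and 9 to 15 with a library left out, and 12 in high DHA 4 to 12 with a library left out. From 10 to 15 dph, 17 in low DHA became 1 with the length score, 15 in medium DHA 6 to 14 and 10 in high DHA 6 to 11 with a library left out. Counts of the 32 rows called moved as follows. For the change from 10 to 15 dph, 9 became 2 without both libraries of lowest TMM factor, 2 with the compared groups only, 0 with the length score, and 1 to 9 with a library left out. For the change from 5 to 10 dph, 1 became 2 by DESeq2, 5 with the compared groups only, 0 with the length score, and 1 to 3 with a library left out. For high over low DHA at 5 dph, 0 became 2 by DESeq2, 8 with the compared groups only, 1 with names summed and 1 with the replicate block. At 10 dph, 7 became 3 without the libraries of lowest TMM factor, 4 with the compared groups only, 0 with the length score, and 2 to 8 with a library left out. At 15 dph, 8 became 3 with the compared groups only (Serpinb1c, VTN and tf), and 2 to 11 with a library left out. For medium over low, 5 at 5 dph became 1 without the libraries of lowest TMM factor, 2 with the compared groups only, 0 with the length score and 0 to 8 with a library left out, and 8 at 10 dph became 5, 0 with the length score and 5 to 7 with a library left out. For high over medium, 1 at 10 dph became 5 by DESeq2, 2 without the libraries of lowest TMM factor, 0 with the compared groups only, 3 with the length score, 2 with the replicate block and 0 to 3 with a library left out, and 7 at 15 dph became 3 to 10. The count of 0 for medium over low at 15 dph and for high over medium at 5 dph held with any library left out. The cause of these moves was not tested.

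Replicate numbers did not pair the samples throughout: of 25 same-numbered pairs at 1 age, 12 had deviations correlated over 0.1 (-0.25 to 0.31), against 12 of 50 pairs of different numbers, and of 25 pairs at 1 DHA level, 10 (-0.15 to 0.30), against 7 of 50. All 3 same-numbered pairs were over 0.1 for medium and low DHA at 15 dph (0.11 to 0.16) and for 15 and 10 dph in high DHA (0.15 to 0.30), where the block left the counts at 0 and 10. For 10 and 5 dph in high DHA the 2 same-numbered pairs were also over 0.1 (0.17 and 0.18). The 2 libraries at 5 dph deviate from their mean in opposite directions by construction, so these 2 pairs are not independent. With the replicate block 12 single results gained a call and 1 lost it (c3, 10 over 5 dph in medium DHA, adjusted p = 0.05), and 6 gained with the 5 dph high DHA library 3 numbered 1. Serpinb1c and serpine3 had the lowest mean CPM over the 9 groups, so their values rest on few counts.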
